A study of Canis lupus familiaris with 2 samples.

Results

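The Golgi apparatus and intracellular protein transport genes described here are 51 of the 1729 rows in the authors' deposited table of genes that differed between CLBL-1 8.0 and CLBL-1. They are the union of the ontology terms Golgi apparatus and intracellular protein transport in the authors' deposited table, matched to the rows by gene ID. Of the 91 genes in that union, 40 were left out because they belong to the Endocytosis, Lysosome or lysosomal membrane terms, lie on chromosomes 4, 5, 6, 32 or 36, have a symbol that begins with ZNF, or are 1 of 6 immune, adhesion and signalling genes (B2M, CD44, BST2, DLA88, RAC2 and ERAP1). Of the members, 35 carry the Golgi term alone, 14 the transport term alone, and STX11 and SNX17 carry both. The table lists only genes that the authors selected as different, so the members were chosen by the same abundance values that are given below, and their counts and values are a description.

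CLBL-1 is a canine cell line of diffuse large B-cell lymphoma, labelled as coming from a lymph node of tumor stage IV. CLBL-1 8.0 is its doxorubicin-resistant form, maintained at 8 µM doxorubicin, an anthracycline that traps topoisomerase II on DNA. The culture medium of both held 10% fetal bovine serum, penicillin and streptomycin. With 1 sample for each line, differences have no replicate check, no error can be given, and no test was made. The labels mention RNA from 3 dishes without saying whether it was pooled, and do not say whether the drug was present when RNA was taken, so drug exposure and resistance cannot be told apart. Of 14 B cell markers only CD81 and CD37 have a row, so the cell type could not be checked in this selection of genes.

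Proteins made in the endoplasmic reticulum leave it in COPII-coated vesicles and pass through the Golgi stack, where glycosyltransferases and sulfotransferases build their sugar chains. At the trans-Golgi network they are sorted to the surface, to endosomes or back. Rab and Arf GTPases mark the membranes, golgins and other tethers capture vesicles, and SNARE proteins such as the syntaxins fuse them. In B cells this route carries the antigen receptor, MHC molecules and secreted antibody.

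The members were split between the directions in nearly the same proportion as the rest of the table. Of the 51, 33 (64.7%) were higher and 18 were lower in CLBL-1 8.0, beside 65.2% higher among all 1729 rows and 67.6% among the 1133 rows that pass the same exclusions. On the scale used below, log2((CLBL-1 8.0 + 1)/(CLBL-1 + 1)), their median difference was 0.68, beside 0.73 over all rows. At a 2-fold limit on this scale, 10 members (19.6%) were higher, against 24.1% of all rows, and 8 members (15.7%) were lower, against 14.4% of all rows. These shares are near the background, and nothing is read from them about the members as a group.

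**Figure D1:**
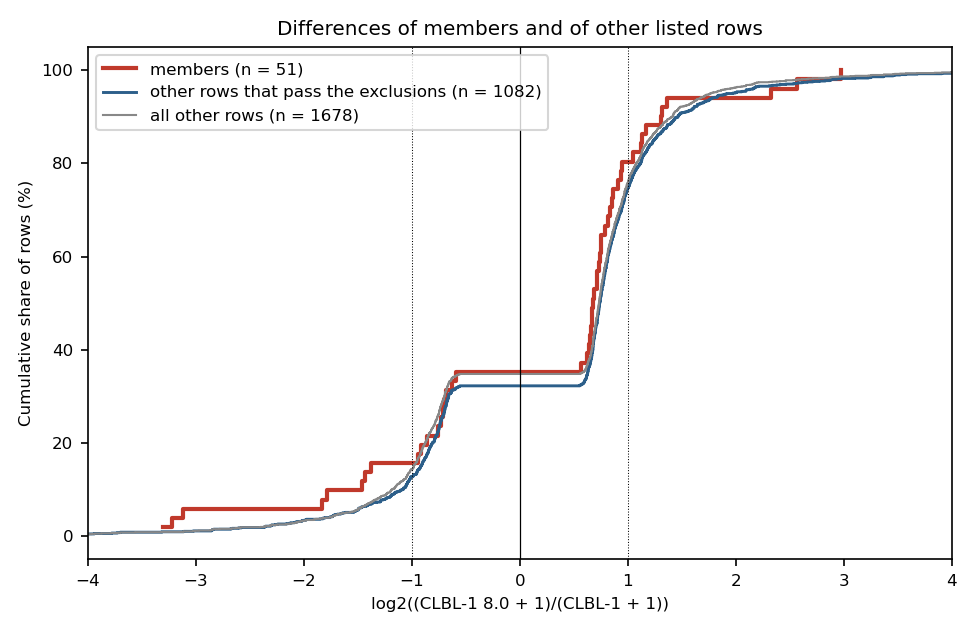
Cumulative share of rows (%) against the log2 difference between CLBL-1 8.0 and CLBL-1, for the 51 members, the other rows that pass the exclusions and all other rows; dotted lines mark 2-fold. The flat middle is the gap left by the authors' selection, and the members' line stays close to the others, with 8 members at or below the lower dotted line. The axis runs to 4 on either side, and some of the other rows lie beyond it.

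Of the 51 members, 33 differed by less than 2-fold on this scale. The smallest absolute log2 fold without a pseudocount was 0.67 over all rows, and 0.67 among the members, at SNX17. Of the higher members, 23 were below the 2-fold limit, with log2 differences from 0.57 to 0.95, and of the lower members 10 were, from -0.94 to -0.59. The larger value reached 10 in 36 members and stayed below it in 15. TMEM173 was the 1 member listed at 0 in CLBL-1 8.0, and none was listed at 0 in CLBL-1.

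**Figure D2:**
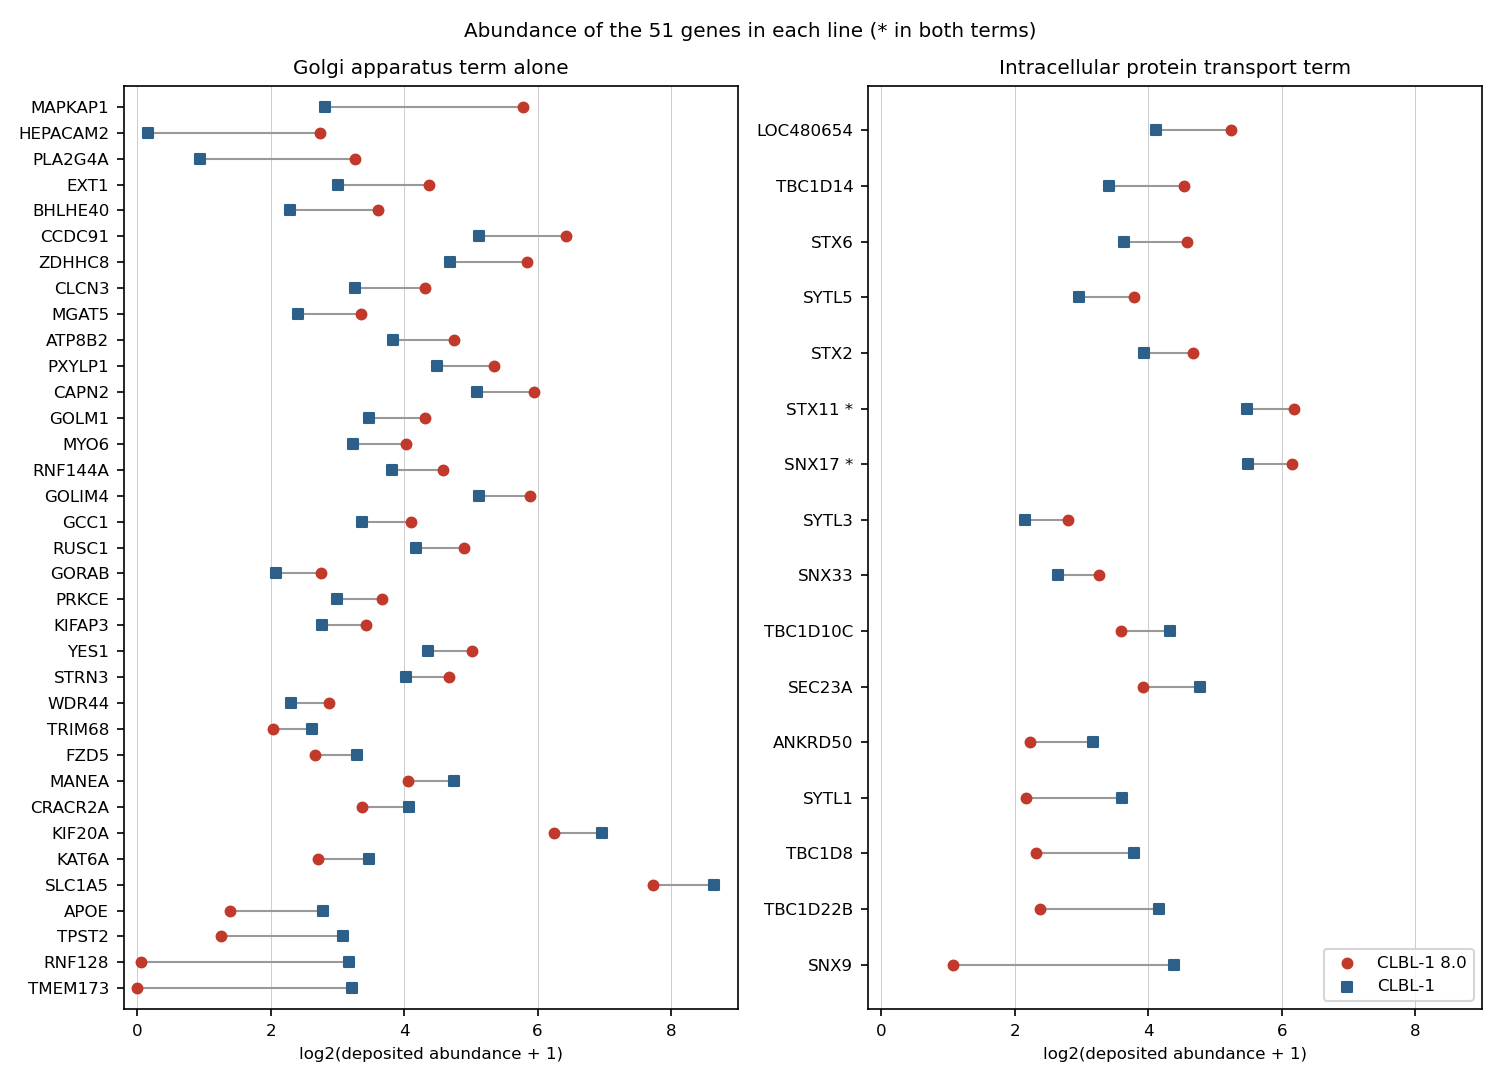
Abundance of each member in CLBL-1 8.0 (circles) and CLBL-1 (squares) as log2(deposited abundance + 1), sorted by difference, for the Golgi term alone at left and the transport term at right; each point is 1 sample. MAPKAP1, HEPACAM2 and PLA2G4A have the widest gaps upward, and SNX9, TMEM173 and RNF128 the widest downward.

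Members of the SNARE family were all higher in CLBL-1 8.0, by small margins, beside 65.2% higher among all rows. STX6, a syntaxin of the trans-Golgi network and endosomes, was at 23.0 in CLBL-1 8.0 and 11.5 in CLBL-1. STX2, a syntaxin of the plasma membrane, was at 24.5 in CLBL-1 8.0 and 14.3 in CLBL-1. STX11, a syntaxin of immune cells that is needed for the release of cytotoxic granules in human lymphocytes, was at 72.0 in CLBL-1 8.0 and 43.5 in CLBL-1. The 3 differences lay between 0.71 and 0.95 on the log2 scale, below the 2-fold limit. Centred on the median of all rows, they were 0.22 for STX6, 0.004 for STX2 and -0.017 for STX11. Outside the members, the SNARE list had 4 more rows that went both ways. STX1A and STXBP3, on chromosome 6, were higher, and STX8 and BNIP1, on chromosomes 5 and 4, were lower. All of these lie on chromosomes that the exclusions leave out, and the part of position in their directions was not tested. In all, 7 of the 62 genes of that list had a row, 5 higher and 2 lower, the median being 0.74.

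The sorting nexins, which bind phosphoinositides on endosomes and at the plasma membrane, included the lowest difference among the members. SNX9, which binds dynamin and promotes actin assembly at budding membranes (gene ID 476254, chromosome 1, 47346214 to 47457417 in the deposited positions, for which the submitters' processing notes name the build CanFam3.1), was at 1.10 in CLBL-1 8.0 and 19.8 in CLBL-1. That is 18.0-fold lower as deposited, and the log2 difference of -3.31 became -2.02 with a pseudocount of 5 and -4.17 without one. Its relative SNX33 differed in the other direction, at 8.61 in CLBL-1 8.0 and 5.25 in CLBL-1. SNX17, which recycles receptors of the LDL receptor family, was at 70.2 in CLBL-1 8.0 and 44.1 in CLBL-1. Of the 100 genes listed for retromer, sorting nexins and endosome sorting, 11 had a row, 8 higher and 3 lower, and the median was 0.66. The lower non-members were SNX18, at 7.86 in CLBL-1 8.0 and 22.9 in CLBL-1, and TOM1L2, at 0.757 in CLBL-1 8.0 and 5.58 in CLBL-1. Both carry the chosen terms but lie on chromosomes 4 and 5, which the exclusions leave out. SNX9, SNX18 and SNX33 form 1 subfamily of sorting nexins, and SNX18 and SNX9 were lower while SNX33 was higher.

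Regulators of Rab GTPases held most of the transport genes that were 2-fold lower. TBC1D22B, a protein with the TBC domain that speeds GTP hydrolysis by Rabs (gene ID 481773, chromosome 12, 6289704 to 6367643), was at 4.21 in CLBL-1 8.0 and 16.9 in CLBL-1. TBC1D8, another TBC protein, was at 4.01 in CLBL-1 8.0 and 12.8 in CLBL-1. TBC1D10C, also called carabin, which restrains calcineurin and Ras in lymphocytes, was at 11.0 in CLBL-1 8.0 and 19.0 in CLBL-1. The log2 differences of these TBC genes were -1.78, -1.46 and -0.73. TBC1D14, which binds RAB11 and regulates autophagy, went the other way, at 22.1 in CLBL-1 8.0 and 9.63 in CLBL-1, a log2 difference of 1.12.

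The row LOC480654 was also higher, at 36.8 in CLBL-1 8.0 and 16.3 in CLBL-1. The authors' deposited table describes it as serine racemase, whereas the RefSeq table of assembly UU_Cfam_GSD_1.0 gives its gene ID the symbol SGSM2, a TBC protein, so the gene behind these values is uncertain. The authors' terms for Rab GTPase binding and regulation of vesicle fusion each held these 5 rows, 2 higher and 3 lower. Over all their rows, Rab GTPase binding had 7 of 11 higher and regulation of vesicle fusion 4 of 7.

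The synaptotagmin-like proteins, effectors that tether RAB27-bearing vesicles, also went both ways. SYTL1 (gene ID 487346, chromosome 2, 72916445 to 72925219) was at 3.48 in CLBL-1 8.0 and 11.1 in CLBL-1, 3.20-fold lower as deposited. SYTL5 was at 12.8 in CLBL-1 8.0 and 6.82 in CLBL-1. SYTL3 was at 5.97 in CLBL-1 8.0 and 3.45 in CLBL-1. SYTL1 overlaps the coding gene MAP3K6 and TBC1D22B overlaps TMEM217 in the reference gene order, and strand handling was not given in the sources used here, so reads of overlapping genes may not have been separable. Over the whole list of Rab GTPases and regulators, 19 of 157 genes had a row, 14 higher and 5 lower, and the median was 0.81. The 7 members of that list were 3 higher and 4 lower, and the 12 other rows were 11 higher and 1 lower. The lower non-member was RAB3IP, an exchange factor for RAB8, at 3.95 in CLBL-1 8.0 and 15.7 in CLBL-1.

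The 5 members in the list of golgins, GRASPs and tethering complexes were all higher in CLBL-1 8.0, beside 65.2% of all rows. CCDC91, a partner of the GGA sorting adaptors (gene ID 486622, chromosome 27, 19234731 to 19579901), was at 85.0 in CLBL-1 8.0 and 33.7 in CLBL-1, 2.53-fold higher as deposited. GOLIM4, a cycling Golgi membrane protein, was at 57.8 in CLBL-1 8.0 and 33.9 in CLBL-1. GOLM1, a Golgi membrane glycoprotein, was at 18.8 in CLBL-1 8.0 and 10.04 in CLBL-1. Their direction was shared by the remaining members in that list. GCC1, a golgin with a GRIP domain, was at 16.2 in CLBL-1 8.0 and 9.32 in CLBL-1. GORAB, a golgin of the trans-Golgi that acts with the COPI coat, was at 5.75 in CLBL-1 8.0 and 3.21 in CLBL-1. The log2 differences of these 5 genes ran from 0.68 at GORAB to 1.31 at CCDC91, and centring on the median over the table turned GORAB to -0.048. The same centring left GCC1 at 0.009, GOLIM4 at 0.021, GOLM1 at 0.11 and CCDC91 at 0.58.

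The wider list of golgins, GRASPs and tethering complexes did not share that direction. It had 13 of 84 genes with a row, 8 higher and 5 lower, and the 8 rows outside the members were 3 higher and 5 lower. Its median was 0.72, and -0.011 after such centring. Among the lower ones, the tether USO1 was at 38.9 in CLBL-1 8.0 and 80.9 in CLBL-1, and GORASP2, a stacking protein, was at 58.1 in CLBL-1 8.0 and 104 in CLBL-1. USO1 and GORASP2 carry the chosen terms and were left out for lying on chromosomes 32 and 36. The agreement among the 5 members therefore holds for them and not for the list.

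The single coat subunit among the members was lower. SEC23A, part of the inner COPII coat (gene ID 480295, chromosome 8, 17205960 to 17292067), was at 14.1 in CLBL-1 8.0 and 26.4 in CLBL-1, a log2 difference of -0.86. The other listed COPII genes had the same direction: SEC31A, of the outer coat, was at 29.6 in CLBL-1 8.0 and 56.9 in CLBL-1, and MIA2, which recruits cargo at exit sites, was at 30.6 in CLBL-1 8.0 and 49.9 in CLBL-1. These are 3 of 20 genes of the COPII list, beside 34.8% lower among all rows. SEC23A and MIA2 both lie on chromosome 8. Of the 10 listed rows next to SEC23A in order of start position, 5 on each side, 3 were higher, with a median of -0.72. The part of position in these directions was not tested. SEC31A lies on chromosome 32, and neither SEC31A nor MIA2 carries the chosen terms. None of the members belongs to the list of COPI and Arf genes, of which 8 of 57 had a row, all 8 higher, beside 65.2% of all rows. Their median of 0.92 was 0.19 after centring. The highest differences there were those of PSD, at 153 in CLBL-1 8.0 and 54.6 in CLBL-1, and CYTH3, at 18.6 in CLBL-1 8.0 and 6.16 in CLBL-1, both exchange factors for Arf GTPases.

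**Figure D3:**
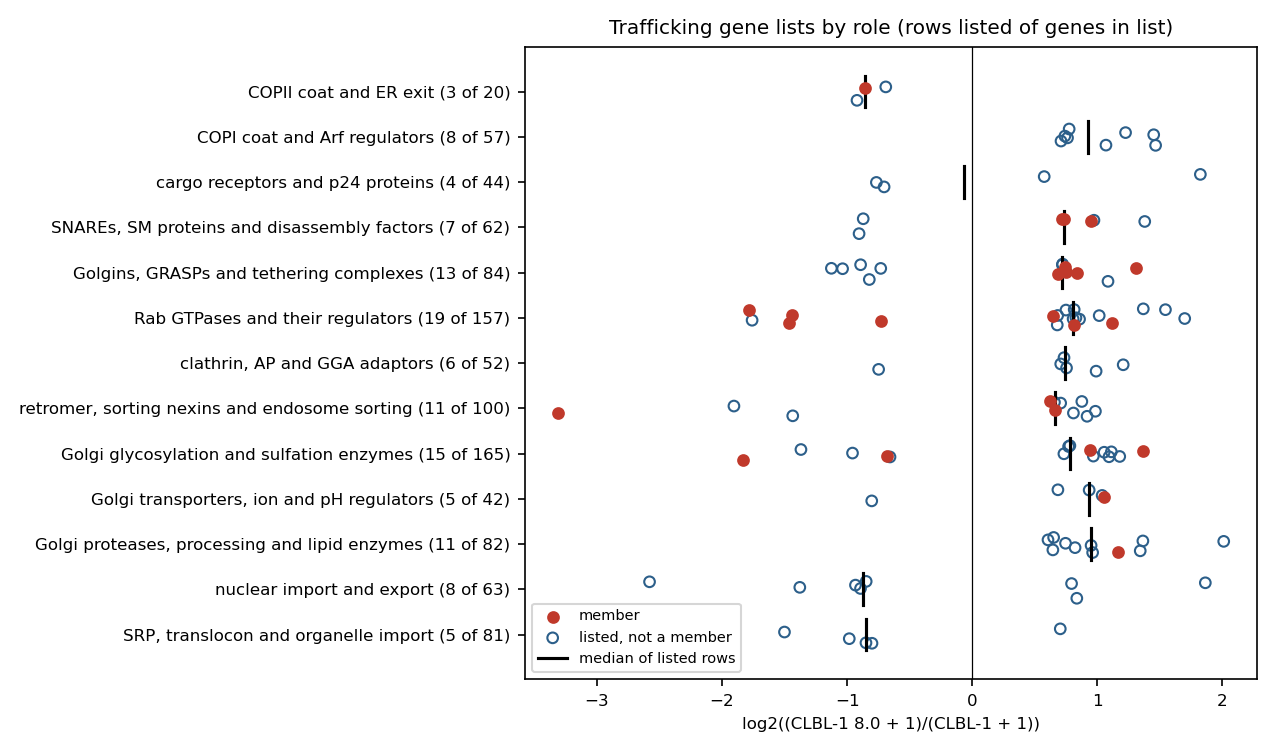
Log2 difference between CLBL-1 8.0 and CLBL-1 for each listed row of 13 trafficking gene lists, with members filled and other rows open; black bars are medians of the listed rows, and points are spread vertically for legibility. All 3 COPII rows lie left of 0 and all 8 COPI and Arf rows right of it, while the Rab regulators spread from -1.78 to 1.70.

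Members in the list of Golgi glycosylation and sulfation enzymes were split evenly, 2 higher and 2 lower. EXT1, a polymerase of heparan sulfate (gene ID 482024, chromosome 13, 17172497 to 17457084), was at 19.7 in CLBL-1 8.0 and 7.03 in CLBL-1, 2.80-fold higher as deposited. MGAT5, which adds the branch of N-glycans that galectins bind after extension, was at 9.19 in CLBL-1 8.0 and 4.32 in CLBL-1. In the other direction, TPST2, which sulfates tyrosines of secreted and membrane proteins, was at 1.39 in CLBL-1 8.0 and 7.50 in CLBL-1. MANEA, an endomannosidase that trims glucosylated N-glycans, was at 15.7 in CLBL-1 8.0 and 25.8 in CLBL-1. The TPST2 difference of -1.83 was past the 2-fold limit and became -0.97 with a pseudocount of 5. PXYLP1, a phosphatase that acts on xylose in the linker of glycosaminoglycans, is not in that list. It was higher, at 39.8 in CLBL-1 8.0 and 21.5 in CLBL-1. Of the 165 glycosylation and sulfation enzymes listed, 15 had a row, 10 higher and 5 lower, and the median was 0.78.

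Among other membrane enzymes and transporters, ZDHHC8, a palmitoyltransferase, was at 56.5 in CLBL-1 8.0 and 24.6 in CLBL-1. CLCN3, a chloride-proton exchanger of endosomes, was at 18.8 in CLBL-1 8.0 and 8.55 in CLBL-1. ATP8B2, a phospholipid flippase, was at 25.7 in CLBL-1 8.0 and 13.2 in CLBL-1. All of these were higher, by 1.17, 1.05 and 0.91 on the log2 scale. ZDHHC8 overlaps the coding gene CCDC188 in the reference gene order. SLC1A5, the glutamine transporter ASCT2, was lower, at 212 in CLBL-1 8.0 and 399.7 in CLBL-1 (log2 difference -0.91). The Wnt receptor FZD5 was at 5.32 in CLBL-1 8.0 and 8.79 in CLBL-1.

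With a pseudocount of 1, the largest increase among the members was that of MAPKAP1; as deposited, HEPACAM2 (log2 fold 5.52) and PLA2G4A (3.23) lay above it. MAPKAP1, also called SIN1, a subunit of the kinase complex mTORC2 (gene ID 480724, chromosome 9, 57447115 to 57699979), was at 54.1 in CLBL-1 8.0 and 6.01 in CLBL-1. Its log2 difference of 2.97 was 3.17 as deposited, and it lay between 2.24 and 2.69 with a pseudocount of 5 and under both scalings. PLA2G4A, the cytosolic phospholipase that releases arachidonic acid (gene ID 480048, chromosome 7, 19804412 to 19955215), was at 8.59 in CLBL-1 8.0 and 0.913 in CLBL-1. Its log2 difference of 2.33 ranged from 1.20 with a pseudocount of 5 to 3.23 without one.

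A pair of protein kinases, a protease subunit and a phosphatase subunit had smaller differences. PRKCE, protein kinase C epsilon, was at 11.7 in CLBL-1 8.0 and 6.95 in CLBL-1. YES1, a Src family kinase, was at 31.4 in CLBL-1 8.0 and 19.4 in CLBL-1. CAPN2, the catalytic subunit of a calcium-dependent protease, was at 60.4 in CLBL-1 8.0 and 33.02 in CLBL-1. STRN3, a striatin that serves as a regulatory subunit of protein phosphatase PP2A, was at 24.4 in CLBL-1 8.0 and 15.2 in CLBL-1. All 4 genes were higher by less than the 2-fold limit, and those of PRKCE, YES1 and STRN3 were also below the median of all rows. STRN3 overlaps COCH and AP4S1 in the reference gene order.

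Motors and other cargo-linked members went both ways. MYO6, the myosin that moves toward the minus ends of actin filaments, was at 15.4 in CLBL-1 8.0 and 8.44 in CLBL-1. KIFAP3, the accessory subunit of kinesin-2, was at 9.81 in CLBL-1 8.0 and 5.78 in CLBL-1. KIF20A, a kinesin that binds RAB6 and is needed for cytokinesis, was lower, at 75.1 in CLBL-1 8.0 and 123 in CLBL-1. KIF20A overlaps BRD8 and CDC23 in the reference gene order and is annotated by the authors to mitotic cytokinesis as well, a term with 1 of 6 rows higher. WDR44, an effector of RAB11, was at 6.35 in CLBL-1 8.0 and 3.95 in CLBL-1, and RUSC1, a protein with RUN and SH3 domains, was at 28.8 in CLBL-1 8.0 and 17.1 in CLBL-1. CRACR2A, a Rab-like GTPase with calcium-binding motifs that regulates calcium entry in T cells, was lower, at 9.33 in CLBL-1 8.0 and 15.8 in CLBL-1, and overlaps PRMT8 in the reference gene order. ANKRD50, an ankyrin-repeat protein of endosomal recycling that carries the transport term alone, was at 3.67 in CLBL-1 8.0 and 7.97 in CLBL-1.

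Outside the trafficking lists, a few lower members were at or near 0 in CLBL-1 8.0. TMEM173, also called STING, an adaptor of DNA sensing that moves to the Golgi when activated (gene ID 606815, chromosome 2, 34783947 to 34792204), was listed at 0 in CLBL-1 8.0 and at 8.34 in CLBL-1. RNF128, a membrane ubiquitin ligase known for T cell anergy (gene ID 492051, chromosome X, 80241285 to 80356094), was at 0.037 in CLBL-1 8.0 and 8.00 in CLBL-1. Its log2 difference depended on the low value, at -3.12 on the scale used here, -7.75 as deposited and -1.37 if 5 was added to both values. APOE, a lipid carrier, was at 1.63 in CLBL-1 8.0 and 5.86 in CLBL-1, and its difference of -1.38 became -0.71 with a pseudocount of 5. Other ubiquitin ligases differed less: RNF144A was at 22.8 in CLBL-1 8.0 and 13.2 in CLBL-1, and TRIM68 at 3.098 in CLBL-1 8.0 and 5.16 in CLBL-1.

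The Golgi term also holds proteins better known from other compartments. BHLHE40, a transcriptional repressor, was at 11.2 in CLBL-1 8.0 and 3.90 in CLBL-1, and KAT6A, a histone acetyltransferase, was at 5.54 in CLBL-1 8.0 and 10.1 in CLBL-1. HEPACAM2, an immunoglobulin superfamily membrane protein (gene ID 609954, chromosome 14, 18691326 to 18742195), was at 5.67 in CLBL-1 8.0 and 0.124 in CLBL-1. Its log2 difference was 2.57, against 5.52 as deposited and 1.06 if 5 was added to both values. In all, 25 members belonged to 1 of the 13 trafficking lists, 17 higher and 8 lower, and 26 belonged to none of them, 16 higher and 10 lower. The members are Golgi and transport genes by the authors' annotation, and 26 of the 51 lie outside the lists used here. Those lists are not complete: WDR44, ANKRD50 and PXYLP1, described above with trafficking or glycan roles, are among the 26.

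By term, the members with the Golgi annotation were 26 higher and 11 lower (median 0.71), and those with the transport annotation were 9 higher and 7 lower (median 0.63). STX11 and SNX17 count under both terms. The members with the Golgi term alone were 24 higher and 11 lower (median 0.72), and those with the transport term alone 7 higher and 7 lower (median -0.054). At the 2-fold limit, 8 Golgi members were higher and 4 lower, against 2 higher and 4 lower among transport members. Over all rows, 65.2% were higher, 24.1% were 2-fold higher and 14.4% were 2-fold lower. The difference between the terms was not tested. It is smaller before the exclusions, where 45 of 65 genes of the Golgi term and 19 of 30 of the transport term were higher. In the authors' deposited table these terms have the smallest p-values of the 118 ontology terms, 0.000151 for Golgi apparatus and 0.000397 for intracellular protein transport, by a tool, background and adjustment that no label or header names.

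The members lie on 25 chromosomes, 12 of which carry 1 member each. Chromosome 7 carried 8 members, more than any other, and all 8 were higher: STX6, PLA2G4A, GORAB, KIFAP3, CAPN2, RUSC1, ATP8B2 and YES1. Of the other 54 rows of chromosome 7, 38 (70.4%) were higher. Without these members, 25 of 43 were higher and the median was 0.65. Both members on chromosome 14, GCC1 and HEPACAM2, were higher, as were 41 of the other 44 rows there. Chromosome 1 had 3 higher and 3 lower members, and on it SNX9 and SYTL3 lie less than 1 Mb apart with opposite directions. For each member, the 5 listed rows on each side in order of start position were taken, or fewer near a chromosome end. Most of these rows shared the direction of 27 of the 33 higher members but of 6 of the 18 lower members. Higher rows are the majority of the table, and the part of chromosome position in these directions was not tested.

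**Figure D4:**
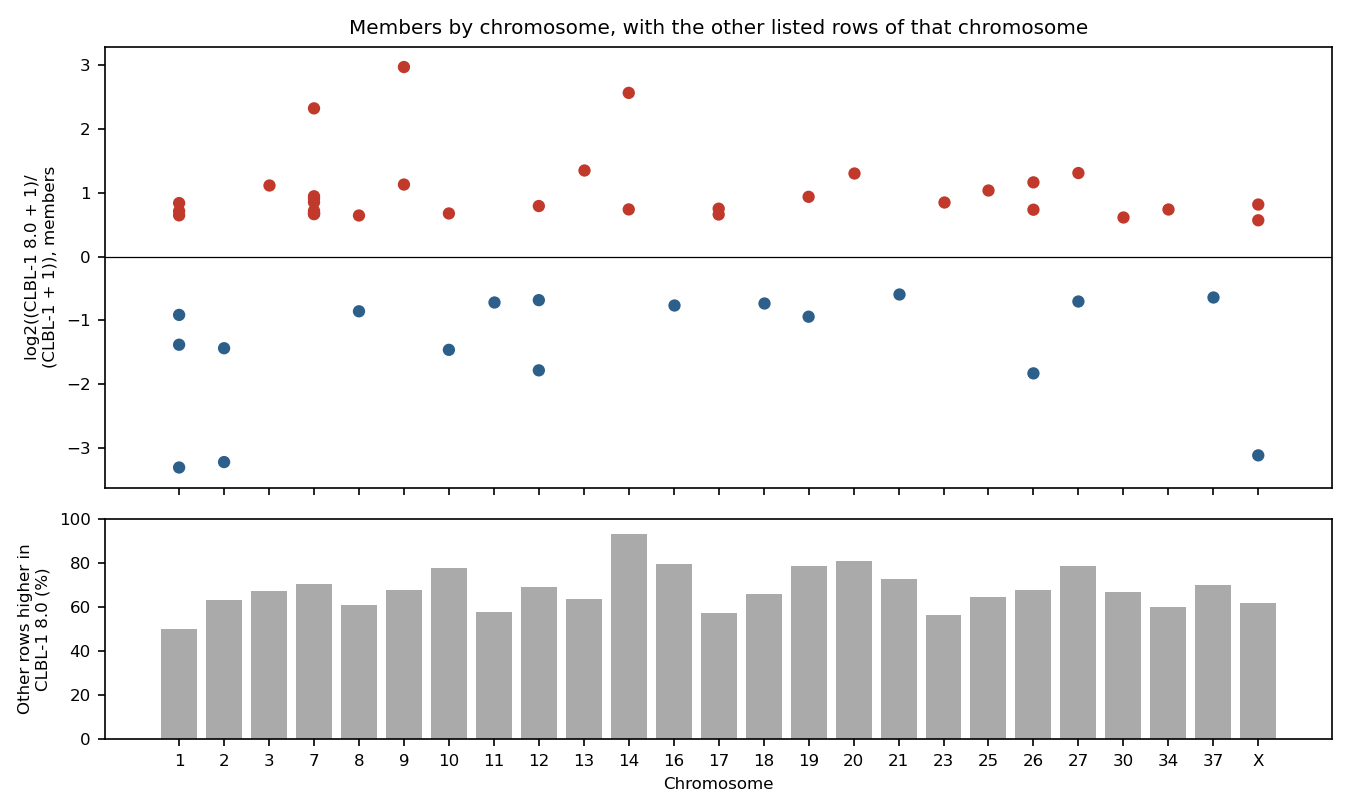
Upper panel, log2 difference between CLBL-1 8.0 and CLBL-1 for each member by chromosome (red higher, blue lower in CLBL-1 8.0); lower panel, percentage of the other listed rows of that chromosome that were higher in CLBL-1 8.0. All 8 members of chromosome 7 lie above 0, and SNX9, TMEM173 and RNF128 are the lowest points, on chromosomes 1, 2 and X.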

How the data were processed

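Poly-A RNA from CLBL-1 8.0, and likewise from CLBL-1, was sequenced as 1 sample each, per the labels' protocols. HISAT2, StringTie and CanFam3.1 are named in the submitters' processing notes, without versions or settings. The abundance signal deposited per gene and line has no stated unit and may be FPKM or TPM. The depth is unknown, so no counting interval is given. The log2 fold changes and the p-values of terms are the authors', per the file headers, as is the count of genes per term in the deposited tables. How the authors selected rows was not given in the sources used here.

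Members were matched by gene ID, and all 51 were found in the RefSeq table of UU_Cfam_GSD_1.0, 49 with the same symbol; it served for names and gene order only. Differences used a pseudocount of 1, with no filter on low values (Python 3.11.15, pandas 2.3.3, matplotlib 3.10.9); counting was tested on simulated data. Levels are compared within a gene only. The naming rule took members that reach 10 in either line, and of these the 10 largest differences in each direction and members of the 13 role lists, 28 in all; the remaining members, and non-members, were named after their values were seen. The members and lists were chosen with earlier results of these data known. Alternatives changed the pseudocount, scaling, fold limit, filter and members.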

Additional observations from a re-analysis of the deposited data

How the results depend on the processing

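All 33 higher and 18 lower members kept their direction without a pseudocount, with a pseudocount of 5 and with upper-quartile scaling. This was fixed in advance, since adding the same pseudocount to both values cannot change a direction. The scaling multiplied CLBL-1 values by 1.25, a log2 shift of 0.32, below the smallest deposited log2 fold of 0.67 in size. All 1127 higher rows of the table stayed higher as well. The factor came from the upper quartiles of the listed rows above 0 in both lines, not from all expressed genes. The members' median of 0.68 was 0.75 without a pseudocount, 0.75 with a pseudocount of 0.1, 0.57 with a pseudocount of 5, 0.39 with upper-quartile scaling, 0.75 over the 30 members with a mean of at least 10, and 0.71 over all 91 genes of the union. In choices made after seeing the data, it was 0.65 without chromosome 7 and 0.71 without members that overlap a coding gene. Centring on the median of all rows, which lowers every difference by 0.73, turned it to -0.054 and left 22 members higher and 29 lower, as 50.0% of all rows are by construction. The differences that turned were -0.048 for GORAB, -0.058 for KIFAP3, -0.054 for PRKCE, -0.013 for RUSC1, -0.071 for SNX17, -0.11 for SNX33, -0.086 for STRN3, -0.017 for STX11, -0.084 for SYTL3, -0.16 for WDR44 and -0.065 for YES1, with list medians of -0.011 for golgins and tethers and -0.071 for retromer and sorting nexins. Lists with a median above 0 numbered 9 of 13, and 7 when centred. Higher members numbered 60 of 91 without exclusions and 9 of 16 in the transport term, and 10 of 51 at the 2-fold limit. Against 10 members 2-fold higher and 8 lower, upper-quartile scaling gave 5 and 15 (12.5% and 30.8% of all rows). A pseudocount of 5 gave 6 and 4 (11.4% and 8.91% of all rows), and centring gave 3 and 18 (5.26% and 34.8%). A 3-fold limit gave 3 and 5, but the share of all rows at that limit was not computed, so nothing is read from these counts. The cause of these shifts is the construction of each setting. No paired analysis was possible because each line has 1 sample, and for the same reason no sample could be left out. Unknown depth limits the low values most, as at RNF128 and HEPACAM2.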

Other observations

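The trafficking lists not yet described are given as values, with genes named after their values were seen. Over all rows of the table, 65.2% were higher in CLBL-1 8.0. Of 52 clathrin, AP and GGA adaptor genes, 6 had a row, 5 higher and 1 lower in CLBL-1 8.0, with a median of 0.74. The 5 higher ones, AP4M1, AP4E1, GGA1, AP1S1 and GGA2, carry the chosen terms and were left out of the members by the exclusions. Of 44 cargo receptor and p24 genes, 4 had a row, 2 higher and 2 lower, and of 42 Golgi transporters and ion or pH regulators, 5 had a row, 4 higher and 1 lower. Of 63 nuclear import and export genes, 8 had a row, 3 higher and 5 lower in CLBL-1 8.0. In that list, the lower rows NUP35, on chromosome 36, and RANGRF and NUP88, on chromosome 5, lie on chromosomes that the exclusions leave out. So do the higher rows XPO6, on chromosome 6, and RANBP3L, on chromosome 4. NUP210, a membrane nucleoporin, was at 7.25 in CLBL-1 8.0 and 48.3 in CLBL-1, the lowest difference of that list at -2.58 on the log2 scale, whereas the exportin XPO4 was at 52.0 in CLBL-1 8.0 and 28.7 in CLBL-1. Of 81 genes of the signal recognition particle, translocon and organelle import, 5 had a row, 1 higher and 4 lower. MTX2 and PEX10, both lower, lie on the left-out chromosomes 36 and 5, and the other lower rows do not. SEC11C, a subunit of the signal peptidase, was at 155 in CLBL-1 8.0 and 280.0 in CLBL-1.

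The list of Golgi proteases, processing and lipid enzymes had 11 of 82 genes with a row, among them the member ZDHHC8, and all 11 were higher, beside 65.2% of all rows, with a median of 0.95. FURIN, the proprotein convertase of the trans-Golgi network, was at 100.5 in CLBL-1 8.0 and 38.4 in CLBL-1. PCSK7, a related convertase, was at 58.7 in CLBL-1 8.0 and 22.5 in CLBL-1, and OSBPL2, a lipid transfer protein, was at 275 in CLBL-1 8.0 and 67.5 in CLBL-1. FURIN, PCSK7 and OSBPL2 do not carry the chosen terms. With 1 sample in each line, none of these values has a replicate check.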
